A study of Homo sapiens with 4 samples.

Results

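The NF-kappaB genes described here are 35 members of the pathway and its inducible targets, listed by symbol and matched to the Ensembl identifiers of the count table. All 35 were found among its 60617 gene entries. They fall into 5 REL family subunits, 5 IkappaB proteins, 6 kinase complex genes, 4 TRAF adaptors, 2 genes of negative feedback and 13 inducible targets. RNA-seq was made from SKNMC, an established Ewing sarcoma cell line grown in Eagle's medium with 10% serum, and compared cells given 1 µM CBL0137 for 24 h (n = 2) with cells given the DMSO vehicle for 24 h (n = 2). The drug CBL0137, of the curaxin class, inserts into DNA and holds FACT, a histone chaperone, on the chromatin. All libraries come from 1 cell line. As the labels do not state whether replicate libraries are separate cultures, p-values refer to the spread between these libraries alone, which may be technical.

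NF-kappaB transcription factors are dimers of REL family proteins. In resting cells IkappaB proteins hold them in the cytoplasm, and signals from TNF, interleukin and Toll-like receptors pass through TRAF adaptors to the IKK complex, which marks IkappaB for destruction and frees the dimers to reach the nucleus. A slower, non-canonical branch runs through the kinase NIK, encoded by MAP3K14, and processes the NFKB2 product so that it can act with RELB. Many genes that NF-kappaB activates encode cytokines, chemokines and adhesion molecules, and others, such as NFKBIA and TNFAIP3, encode its own inhibitors.

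Gene-assigned reads numbered 20767817 and 21061892 with CBL0137, against 20086664 and 19625517 with DMSO. All 9 Ewing sarcoma markers looked up were expressed, and they summed to 1760 and 1880 CPM (reads as a share of the scaled library total) in the CBL0137 libraries, against 3780 and 3780 in the DMSO libraries. Without CAV1 and CCND1, the pair that fell most in CPM, the other 7 summed to 976 and 1030 CPM with CBL0137 and 1430 and 1430 CPM with DMSO. FLI1 (log2 fold change 0.02), NKX2-2 (0.23), EWSR1 (-0.18) and STEAP1 (-0.24) were not called. The other 5 were called lower: CAV1 (-2.18), PRKCB (-1.18), CCND1 (-1.06), CD99 (-0.69) and NR0B1 (-0.67). That is 55.6% of the markers, beside 15.1% called lower over all genes tested. The leukocyte gene PTPRC was at 106.7 and 123.6 CPM with CBL0137, against 162.3 and 161.9 CPM with DMSO, but the other 7 myeloid markers together stayed at 0.819 and 0.948 CPM with CBL0137, against 0.529 and 1.18 CPM with DMSO. TYROBP, a myeloid adaptor gene, had no read in any library. All 5 fibroblast markers were expressed, at a summed 938 and 911 CPM with CBL0137 and 691 and 683 CPM with DMSO. COL1A1 set that direction, since without it the sum was 467 and 469 CPM with CBL0137 and 564 and 564 CPM with DMSO. The 4 endothelial markers that matched an identifier summed to 4.14 and 4.79 CPM with CBL0137 and 2.80 and 2.42 CPM with DMSO. CDH5 was called higher, with 64 and 75 reads with CBL0137 and 26 and 31 with DMSO (log2 fold change 1.05). KDR (0.61) was not called, and VWF and TEK were not tested. The 7 lymphocyte markers summed to 8.56 and 10.3 CPM with CBL0137 and 13.6 and 12.5 CPM with DMSO, and 5 of them had fewer than 10 reads in every library. Most of that sum was CD79A, with 165 and 208 reads with CBL0137 and 251 and 220 with DMSO (log2 fold change -0.57, not called).

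Most of the signalling machinery was transcribed at levels that differed little between CBL0137 and DMSO, while a few kinases, inhibitors and targets differed by larger amounts. Of the 35 genes, 26 had enough reads to be tested, and 9 of these passed the test (edgeR quasi-likelihood, Benjamini-Hochberg adjusted p under 0.05 over all genes and a fold above 1.5): 5 rose and 4 fell with CBL0137. Over all 17374 genes tested the same rule called 33.4%, with 18.2% higher and 15.1% lower, so the 34.6% called among the 26 was near the share of the whole transcriptome. With library size alone in place of TMM factors, 68.8% of all calls were higher, against 54.6% with TMM factors, and the log2 median over all genes moved by 0.16. The 26 had a median log2 fold change of -0.06, beside 0.01 over all genes tested. The genes that rose were TBK1, MAP3K14, TNFAIP2, ICAM1 and CSF1, and those that fell were RELB, NFKBIB, IKBKE and PTGS2. By their reads, IKBKE could enter the test only through its DMSO libraries, and TNFAIP2, ICAM1 and CSF1 only through their CBL0137 libraries. The calls of these genes thus come from genes admitted by the group where they were high. Each of the 9 kept its direction in every alternative that tested it. By the adjusted p alone 13 of the 26 passed, beside 61.7% of all genes tested, and the other 4 of these (REL, NFKBIA, TRAF3 and CD83) had a fold below the limit. Of 13 alternatives, the adjusted p stayed under 0.05 in 13 for NFKBIA, 11 for TRAF3, 9 for CD83 and 5 for REL.

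The kappaB consensus, the DNA element that REL dimers bind, shows where the pathway's own genes and classic targets carry its recognition letters. Sequences are RefSeq promoters on GRCh38.p14, a later build than the hg19 used for the reads, and 29 of the 35 genes matched a promoter. The consensus was searched on both strands in the 250 bases before each start, and overlapping matches on opposite strands were counted as they came. It was found in 9 of the 29 promoters (31.0%), in 9.57% of all 27305 promoters and in 11.6% of those of tested genes. Below are the 100 bases before the start of 8 of these genes, 5′ to 3′ on the gene's strand, with each match in capitals. They are shown because none of these genes was called: 5 were read at a difference within the fold limit, and CXCL1, CXCL2 and IL6 were almost unread. Among the 5, REL, NFKBIA and TRAF3 passed the adjusted p limit.
NFKB1, chr4:102501259-102501358, plus strand: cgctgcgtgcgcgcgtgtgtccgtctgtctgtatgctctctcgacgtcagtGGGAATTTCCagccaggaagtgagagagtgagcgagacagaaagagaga
REL, chr2:60881474-60881573, plus strand: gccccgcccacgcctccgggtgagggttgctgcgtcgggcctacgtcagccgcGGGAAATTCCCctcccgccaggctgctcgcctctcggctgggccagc
NFKBIA, chr14:35404750-35404849, minus strand: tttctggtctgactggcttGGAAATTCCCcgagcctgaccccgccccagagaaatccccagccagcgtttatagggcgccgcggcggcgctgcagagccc
TNFAIP3, chr6:137867159-137867258, plus strand: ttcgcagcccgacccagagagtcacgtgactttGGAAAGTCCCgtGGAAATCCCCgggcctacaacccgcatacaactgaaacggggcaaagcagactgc
TRAF3, chr14:102777349-102777448, plus strand: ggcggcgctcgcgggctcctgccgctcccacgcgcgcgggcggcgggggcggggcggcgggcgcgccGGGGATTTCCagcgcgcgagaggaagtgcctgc
CXCL1, chr4:73869293-73869392, plus strand: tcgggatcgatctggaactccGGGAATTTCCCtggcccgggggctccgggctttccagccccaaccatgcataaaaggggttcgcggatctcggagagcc
CXCL2, chr4:74099196-74099295, minus strand: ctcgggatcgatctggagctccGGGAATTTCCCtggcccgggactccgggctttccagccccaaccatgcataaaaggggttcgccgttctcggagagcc
IL6, chr7:22727100-22727199, plus strand: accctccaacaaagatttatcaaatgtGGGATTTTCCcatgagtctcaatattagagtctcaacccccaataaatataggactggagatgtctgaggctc

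The CXCL1 and CXCL2 stretches carry the same run of capitals near the same distance from the start, and TNFAIP3 has 2 matches a few bases apart. The ninth promoter with a match was that of NFKBIZ, where it lay 223 to 214 bases before the start. Of the 9 genes that were called, 7 had a promoter in the table (TBK1, MAP3K14, TNFAIP2, ICAM1, NFKBIB, IKBKE and PTGS2), and 0 of these held the consensus in the window. Over all genes, the consensus was in 12.2% of promoters of genes called higher and 11.2% of those called lower. A missing match says only that these letters are not in this window. The stretches of 4 of the called genes are given for comparison, and none has capitals.
TBK1, chr12:64452020-64452119, plus strand: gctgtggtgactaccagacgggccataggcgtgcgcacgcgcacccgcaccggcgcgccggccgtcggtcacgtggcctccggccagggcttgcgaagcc
IKBKE, chr1:206470376-206470475, plus strand: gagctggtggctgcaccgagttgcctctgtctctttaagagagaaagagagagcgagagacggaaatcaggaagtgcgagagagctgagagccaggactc
NFKBIB, chr19:38899566-38899665, plus strand: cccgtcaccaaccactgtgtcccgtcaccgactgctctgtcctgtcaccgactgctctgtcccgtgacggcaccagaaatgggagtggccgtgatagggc
ICAM1, chr19:10271020-10271119, plus strand: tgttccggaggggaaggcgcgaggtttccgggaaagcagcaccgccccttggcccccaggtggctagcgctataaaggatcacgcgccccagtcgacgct

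**Figure D1:**
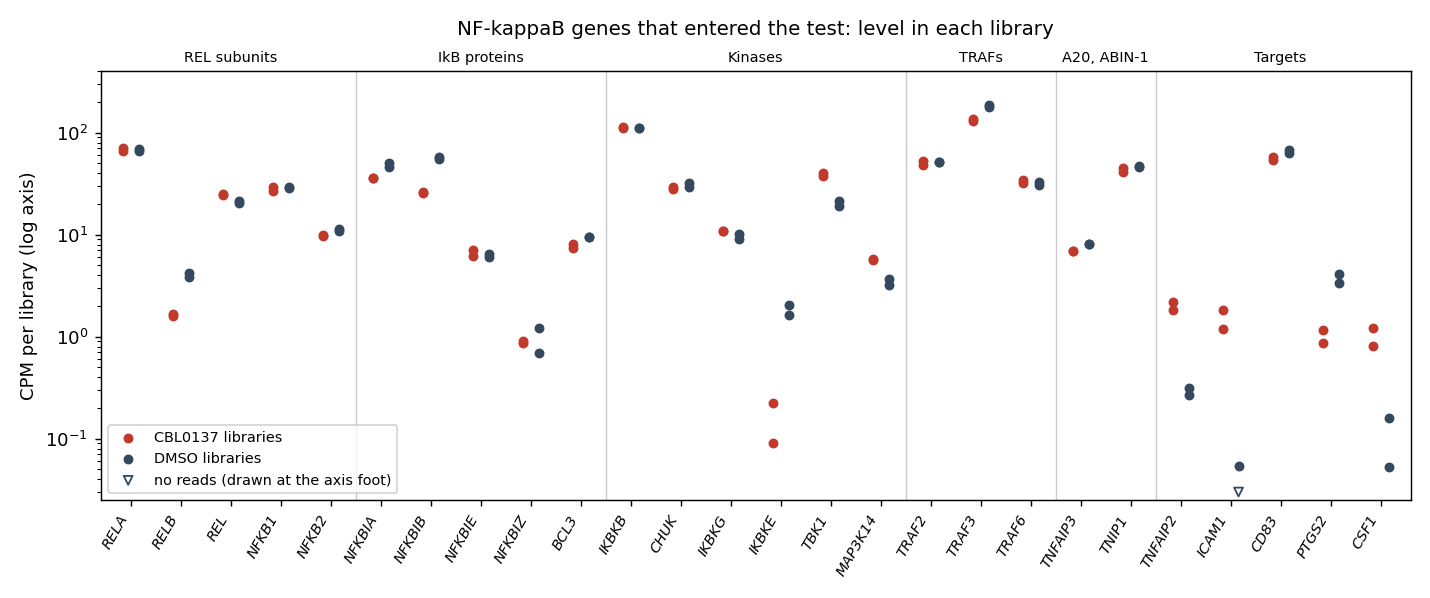
Level of each of the 26 tested NF-kappaB genes in CPM on a log axis, 1 point per library, with CBL0137 libraries to the left of DMSO libraries for each gene. An open triangle marks a library with no read. Core genes such as RELA, NFKB1 and IKBKB have overlapping points, whereas IKBKE, ICAM1, TNFAIP2 and CSF1 are far apart at low levels.

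Among the REL family subunits 1 of 5 fell (20%) and 0 rose, beside 15.1% lower and 18.2% higher over all genes tested. RELB, the partner of the processed NFKB2 product in the non-canonical branch (ENSG00000104856, GRCh37 chromosome 19, 45504719 to 45541450, plus strand), had 37 and 35 reads in the CBL0137 libraries, against 72 and 78 in the DMSO libraries. That is 1.63 ± 0.0731 CPM with CBL0137 and 3.998 ± 0.272 CPM with DMSO (SD, n = 2 each), and both treated libraries lay below both vehicle libraries. Its log2 fold change was -1.29 (SE 0.27, edgeR adjusted p = 6.5e-05).

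RELA, which encodes the main activating subunit, was at 70.4 and 66.4 CPM with CBL0137 and 68.6 and 66.3 CPM with DMSO. Its groups overlapped, and the log2 fold change of 0.02 had a 95% interval from -0.11 to 0.15. NFKB1, the precursor gene of the other subunit of the classical dimer, was at 27.1 and 29.6 CPM with CBL0137 and 29.4 and 28.6 CPM with DMSO (log2 fold change -0.03, 95% interval -0.21 to 0.14). NFKB2, the precursor that NIK signalling processes, was at 9.74 and 10.03 CPM against 10.8 and 11.4 CPM (-0.17, interval -0.44 to 0.10). REL, the lymphoid-type activating subunit, was at 25.1 and 24.3 CPM with CBL0137 and 20.4 and 21.5 CPM with DMSO, without overlap (0.24, SE 0.10, adjusted p = 0.029 by edgeR, below the fold limit). Per unit of length, RELA was the most abundant subunit, with 20.7 and 18.2 FPKM in CBL0137 libraries and 17.7 and 18.3 FPKM in DMSO libraries. RELB was the least abundant, with 0.372 and 0.362 FPKM against 1.11 and 1.27 FPKM.

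Of the 5 IkappaB genes 1 fell and 0 rose (20% called, beside 33.4% over all genes tested). NFKBIB, which encodes IkappaB-beta (ENSG00000104825, GRCh37 chromosome 19, 39390340 to 39399533, plus strand), had 577 and 569 reads with CBL0137, against 1101 and 1036 with DMSO. It averaged 25.98 ± 0.399 CPM in treated cells and 56.9 ± 1.80 CPM in vehicle cells (SD, n = 2 each), with no overlap. Its log2 fold change was -1.13 (SE 0.08, edgeR adjusted p = 1.7e-16) and lay between -1.18 and -0.97 in all 13 alternatives. NFKBIB overlaps SIRT2 on the opposite strand. SIRT2 had 880 and 841 reads with CBL0137 and 647 and 575 with DMSO (log2 fold change 0.26, not called), and its part in the NFKBIB count was not tested.

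NFKBIA, the IkappaB-alpha gene and itself a rapid NF-kappaB target, was at 35.8 and 35.6 CPM with CBL0137 and 45.7 and 50.6 CPM with DMSO. The groups did not overlap, but at -0.43 on the log2 scale (SE 0.08, edgeR adjusted p = 5e-06) the difference stayed within the fold limit. NFKBIE, for IkappaB-epsilon, was at 7.01 and 6.19 CPM against 6.03 and 6.45 CPM (0.08, adjusted p = 0.70 by edgeR). Of the nuclear IkappaB proteins, BCL3 was at 7.33 and 8.04 CPM against 9.57 and 9.40 CPM (-0.30, adjusted p = 0.075 by edgeR). NFKBIZ had only 20 and 19 reads with CBL0137 and 23 and 13 with DMSO, so its interval was wide (log2 -1.02 to 0.79).

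The 6 kinase complex genes held 3 of the 9 calls (50% called, beside 33.4% over all genes tested). IKBKE and TBK1 encode the pair of IKK-related kinases, which share substrates in innate immune signalling, and they were called in opposite directions. IKBKE (ENSG00000263528, GRCh37 chromosome 1, 206643819 to 206670222, plus strand) had 2 and 5 reads in the CBL0137 libraries, against 31 and 38 in the DMSO libraries. Its level was 0.0910 and 0.226 CPM with CBL0137 and 1.64 and 2.04 CPM with DMSO, with no overlap. The log2 fold change was -3.49 (SE 0.55, edgeR adjusted p = 6.1e-07), and the ratio of pooled reads, scaled for depth, was 0.0863 with a 95% counting interval from 0.0335 to 0.188. With so few treated reads, IKBKE could enter the test only through its DMSO libraries. Its antisense gene IKBKE-AS1 had at most 3 reads in any library. For IKBKE the log2 fold change was -4.25 without CBL0137 replicate 2 and -2.99 without CBL0137 replicate 1.

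TBK1 (ENSG00000183735, GRCh37 chromosome 12, 64845870 to 64895894, plus strand) had 880 and 832 reads with CBL0137, against 405 and 359 with DMSO. It averaged 38.8 ± 1.75 CPM in treated cells and 20.4 ± 1.50 CPM in vehicle cells (SD, n = 2 each), both treated libraries above both vehicle libraries. Its log2 fold change was 0.93 (SE 0.09, edgeR adjusted p = 3.9e-12). Per length, TBK1 stood at 9.49 and 9.34 FPKM with CBL0137 and 4.90 and 4.55 FPKM with DMSO. IKBKE stood at 0.0168 and 0.0555 FPKM with CBL0137 and 0.310 and 0.555 FPKM with DMSO, so TBK1 was the more abundant of the pair in every library.

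MAP3K14, the gene of NIK (ENSG00000006062, GRCh37 chromosome 17, 43340486 to 43394395, minus strand), had 125 and 129 reads with CBL0137 and 61 and 68 with DMSO. It averaged 5.76 ± 0.0967 CPM in treated cells and 3.44 ± 0.303 CPM in vehicle cells (SD, n = 2 each), without overlap. The log2 fold change was 0.74 (SE 0.21, edgeR adjusted p = 0.0019). With DESeq2 the adjusted p was 0.064, and over the 13 alternatives it ranged from 0.00026 to 0.064. Its antisense neighbour MAP3K14-AS1 also rose, with 228 and 238 reads against 45 and 59 (log2 fold change 1.93), and its part in the MAP3K14 count was not tested. In FPKM the MAP3K14 difference was larger, with 1.31 and 1.38 in treated libraries and 0.304 and 0.313 in vehicle libraries.

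The IKK complex genes were not called. IKBKB, the catalytic subunit of the classical branch, was at 109.9 and 114.4 CPM with CBL0137 and 109.8 and 111.2 CPM with DMSO. Its groups overlapped (log2 fold change 0.02, 95% interval -0.09 to 0.14), although its FPKM values were lower in both treated libraries, at 13.3 and 14.2 against 18.6 and 22.3. On log2(FPKM + 1) the difference was -0.54, past the adjusted p limit (0.018 by limma) but below the fold limit. With library size alone, where the median over all genes moved by 0.16, the IKBKB value was 0.18 (adjusted p = 0.0054 by edgeR). CHUK, the catalytic subunit that also serves the non-canonical branch, was at 28.3 and 29.4 CPM with CBL0137 and 29.1 and 32.1 CPM with DMSO (-0.08, interval -0.26 to 0.09). IKBKG, the regulatory subunit NEMO, was at 10.92 and 10.93 CPM against 10.2 and 9.08 CPM (0.18, interval -0.10 to 0.46). IKBKG has a near-identical pseudogene, so its count is uncertain.

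No TRAF adaptor or feedback gene was called (0% in both roles, beside 33.4% over all genes tested). TRAF3, which keeps NIK low in resting cells, had the most reads of the 35 genes in all 4 libraries, with 2994 and 2888 in CBL0137 libraries and 3402 and 3450 in DMSO libraries. It was at 136.3 and 130.4 CPM against 179.8 and 185.3 CPM, without overlap, and at -0.45 on the log2 scale (SE 0.05, edgeR adjusted p = 1.3e-09) it was within the fold limit. TRAF2, its partner in NIK turnover, was at 53.1 and 48.3 CPM against 51.6 and 51.0 CPM (-0.02). TRAF6, the adaptor of interleukin-1 and Toll-like receptors, was at 34.6 and 32.0 CPM against 30.5 and 32.5 CPM (0.08). TRAF1, an adaptor gene that NF-kappaB induces, had 0 and 2 reads with CBL0137 and 2 and 1 with DMSO. TNFAIP3, a ubiquitin-editing inhibitor that NF-kappaB induces, had 151 and 153 reads in treated libraries and 154 and 152 in vehicle libraries (log2 fold change -0.24, interval -0.56 to 0.08). TNIP1, which binds the TNFAIP3 protein, was at 44.8 and 41.1 CPM against 46.7 and 46.4 CPM (-0.12, interval -0.27 to 0.03).

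**Figure D2:**
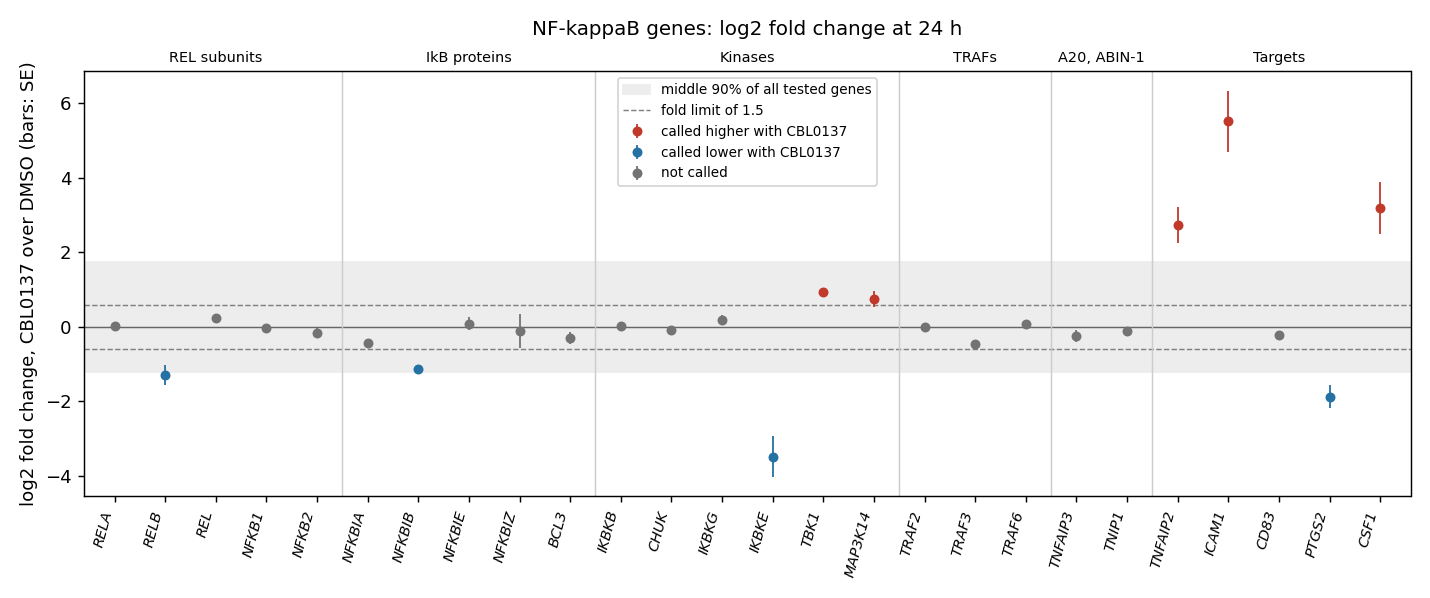
Log2 fold change of CBL0137 over DMSO with its SE for the 26 tested NF-kappaB genes, by role. The grey band holds the middle 90% of all tested genes, from -1.22 to 1.75, and dashed lines mark the fold limit of 1.5. IKBKE, ICAM1, TNFAIP2 and CSF1 lie farthest outside the band, and PTGS2 and RELB lie below its lower edge.

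The inducible targets were mostly unread. Of 13 targets, 7 had fewer than 10 reads in every library (CXCL8, CXCL1, CXCL2, IL6, IL1B, CCL2 and LIF), and with TRAF1 these 8 genes together gave 5 and 11 reads in the CBL0137 libraries and 6 and 12 in the DMSO libraries. CCL2, a monocyte chemokine gene, had no read in any library, which allows up to 0.137 and 0.135 CPM in the CBL0137 libraries and 0.159 and 0.161 CPM in the DMSO libraries (3 reads, counting error only). The neutrophil chemokine gene CXCL8 had 0 and 1 read with CBL0137 and 0 and 5 with DMSO. Its neighbours CXCL1 and CXCL2 had 0 and 1 and then 0 and 0 reads with CBL0137, against 2 and 1 and then 2 and 4 with DMSO. They are near-identical copies, and reads that align to both would be set aside as not unique and counted for neither. The cytokine gene IL6 had 0 and 1 read with CBL0137 and 0 and 0 with DMSO, and LIF, of the same cytokine family, had 0 and 0 against 0 and 1. All 6 were too sparse for the test. Against 3 reads over the treated group, CXCL2 was at least 2.35-fold lower with CBL0137, a bound that leaves out the counting error of its 6 vehicle reads. With no filter on low counts it was not called (adjusted p = 0.16 by edgeR).

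IL1B, the gene of a secreted inflammatory cytokine, had 5 and 6 reads with CBL0137 and 0 and 0 with DMSO. Against 3 reads over the vehicle group its level was at least 3.12-fold higher with CBL0137, a bound that leaves out the counting error of its 11 reads. It had too few reads for the test, and with no filter on low counts it was not called (adjusted p = 0.082 by edgeR). TNF, whose product is the classic activator of the pathway, had 12 and 6 reads with CBL0137 and 5 and 2 with DMSO. The ratio of its pooled reads was 2.19 with a 95% counting interval from 0.872 to 6.20, and it was not tested either.

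Of the 5 targets that were tested, 3 rose (60%), 1 fell (20%) and 1 was not called. Over all genes tested 18.2% were called higher and 15.1% lower. A gene silent with DMSO could enter the test only through its treated libraries, so that count describes these 5 genes and not the 13. ICAM1, the gene of a leukocyte adhesion receptor (ENSG00000090339, GRCh37 chromosome 19, 10381769 to 10397291, plus strand), had 26 and 40 reads with CBL0137, against 0 and 1 with DMSO. It was at 1.18 and 1.81 CPM in treated libraries and 0 and 0.0537 CPM in vehicle libraries, with no overlap. The ratio of pooled reads was 56.15 with a 95% counting interval from 9.73 to 2251, and the edgeR adjusted p was 1.9e-07. The fitted log2 fold change of 5.52 (SE 0.82) rests on 1 vehicle read and was 4.64 without DMSO replicate 1 and 7.97 without DMSO replicate 2. The antisense gene ICAM4-AS1 had 1 and 6 reads with CBL0137 and 0 and 0 with DMSO.

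CSF1, the gene of the macrophage growth factor (ENSG00000184371, GRCh37 chromosome 1, 110452864 to 110473614, plus strand), had 27 and 18 reads with CBL0137, against 1 and 3 with DMSO. Both treated libraries were above both vehicle libraries (log2 fold change 3.19, SE 0.69, edgeR adjusted p = 1e-04). The value was 2.60 without DMSO replicate 1 and 4.11 without DMSO replicate 2. TNFAIP2, a TNF-induced gene of membrane trafficking (ENSG00000185215, GRCh37 chromosome 14, 103587813 to 103603776, plus strand), had 48 and 40 reads with CBL0137, against 6 and 5 with DMSO. It averaged 1.996 ± 0.267 CPM in treated cells and 0.293 ± 0.0343 CPM in vehicle cells (SD, n = 2 each), which gives 2.74 as its log2 fold change (SE 0.48, edgeR adjusted p = 4.4e-06).

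PTGS2, the inducible prostaglandin synthase gene (ENSG00000073756, GRCh37 chromosome 1, 186640923 to 186650054, minus strand), went the other way. It had 19 and 26 reads with CBL0137, against 64 and 77 with DMSO, or 1.02 ± 0.219 CPM in treated cells and 3.76 ± 0.533 CPM in vehicle cells (SD, n = 2 each). Its log2 fold change was -1.88 (SE 0.31, edgeR adjusted p = 1.4e-06). PACERR, a noncoding gene that overlaps it on the opposite strand, had 1 and 1 read with CBL0137 and 14 and 5 with DMSO.

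CD83, an immunoglobulin-family surface protein known from dendritic cells, was by far the most read of the 13 targets. It had 1189 and 1280 reads with CBL0137 and 1208 and 1247 with DMSO, or 54.1 and 57.8 CPM against 63.9 and 67.0 CPM. These groups did not overlap, and the log2 fold change was -0.23 (SE 0.07, edgeR adjusted p = 0.0035), within the fold limit. Per length it stood at 16.1 and 17.2 FPKM with CBL0137 and 17.6 and 18.6 FPKM with DMSO. The called targets were all far lower, with ICAM1 at 0.205 and 0.456 FPKM, TNFAIP2 at 0.387 and 0.250 FPKM, CSF1 at 0.125 and 0.0652 FPKM and PTGS2 at 0.185 and 0.220 FPKM in the CBL0137 libraries. On log2(FPKM + 1), which flattens values under 1, the calls of ICAM1 (0.40), TNFAIP2 (0.34), PTGS2 (-0.38) and IKBKE (-0.46) were lost, with directions kept. Fewer cells with such a transcript and less of it per cell cannot be told apart in these bulk libraries.

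**Figure D3:**
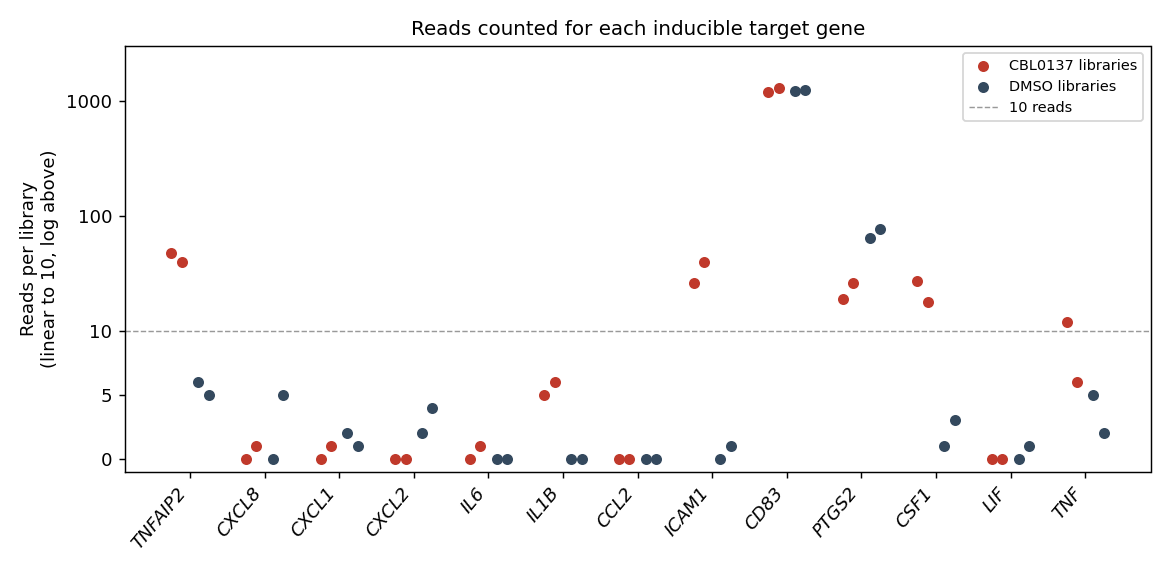
Reads counted in each library for the 13 inducible targets, on an axis that is linear up to 10 reads and logarithmic above, with CBL0137 libraries left of DMSO libraries for each gene. CD83 lies highest in all 4 libraries, at 1189 to 1280 reads. ICAM1, CSF1 and TNFAIP2 cross 10 reads in both treated libraries and in no vehicle library. TNF crosses 10 reads in CBL0137 replicate 1 alone, with 12 reads, and PTGS2 is lower with CBL0137.

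Beyond the 35 genes, 92 further pathway genes were listed, of which 91 were in the table and 63 were tested. With CBL0137 8 rose and 8 fell, 25.4% in all beside the 33.4% of all genes, and the median log2 fold change was -0.01. Of 20 tested receptors and adaptors upstream of IKK, 2 rose and 0 fell (10% called). TRADD, the adaptor of the TNF receptor, was at 7.65 and 7.27 CPM with CBL0137 and 3.28 and 4.14 CPM with DMSO (log2 fold change 1.01, SE 0.19). RIPK1, the kinase that docks on that receptor, was at 35.6 and 39.7 CPM against 24.95 and 22.5 CPM (0.66, SE 0.09). The kinase gene MAP3K7, which activates IKK, was at 151.1 and 159.7 CPM against 155.6 and 154.9 CPM. The Toll-like receptor genes TLR3 and TLR4 had no read in any library.

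Of 22 tested genes of the ubiquitin machinery and other inhibitors, 1 rose and 1 fell (9.09% called, beside 33.4% of all genes tested). RNF31, of the linear ubiquitin ligase, had 26 and 19 reads with CBL0137 and 9 and 6 with DMSO (log2 fold change 1.34, SE 0.52). By these reads RNF31 could enter the test only through its CBL0137 libraries, the group where it was high. It overlaps PSME2 and other genes, and its FPKM values of 9.04 and 7.08 with CBL0137 and 8.21 and 8.54 with DMSO did not separate. NFKBIL1, an IkappaB-like gene, was at 8.33 and 7.05 CPM with CBL0137 and 10.5 and 13.8 CPM with DMSO (-0.66, SE 0.15), and overlaps ATP6V1G2.

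Of 21 tested further targets, 5 rose and 7 fell, with the same limit on low genes as above. That is 23.8% higher and 33.3% lower, beside 18.2% and 15.1% over all genes tested. VCAM1, an adhesion receptor gene like ICAM1, had 252 and 300 reads with CBL0137, against 957 and 962 with DMSO. At 11.5 and 13.6 CPM in treated libraries and 50.6 and 51.7 CPM in vehicle libraries it was without overlap (log2 fold change -2.03, SE 0.09, edgeR adjusted p = 3.6e-22). ICAM1 and VCAM1 thus moved in opposite directions, at different levels. PLAUR, the urokinase receptor gene, was at 17.3 and 18.3 CPM against 36.1 and 34.2 CPM (-0.98, SE 0.09). EFNA1, an ephrin ligand gene, was at 44.7 and 42.6 CPM against 24.3 and 23.96 CPM (0.85, SE 0.08), and the kinase gene MAP3K8 at 5.46 and 5.47 CPM against 1.85 and 2.69 CPM (1.27, SE 0.23). CXCL10 (-2.51) and PTX3 (-2.92), named after their values were seen, had the lowest values of the list, with 3 and 15 and then 1 and 12 reads with CBL0137, against 46 and 42 and then 37 and 48 with DMSO.

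**Figure D4:**
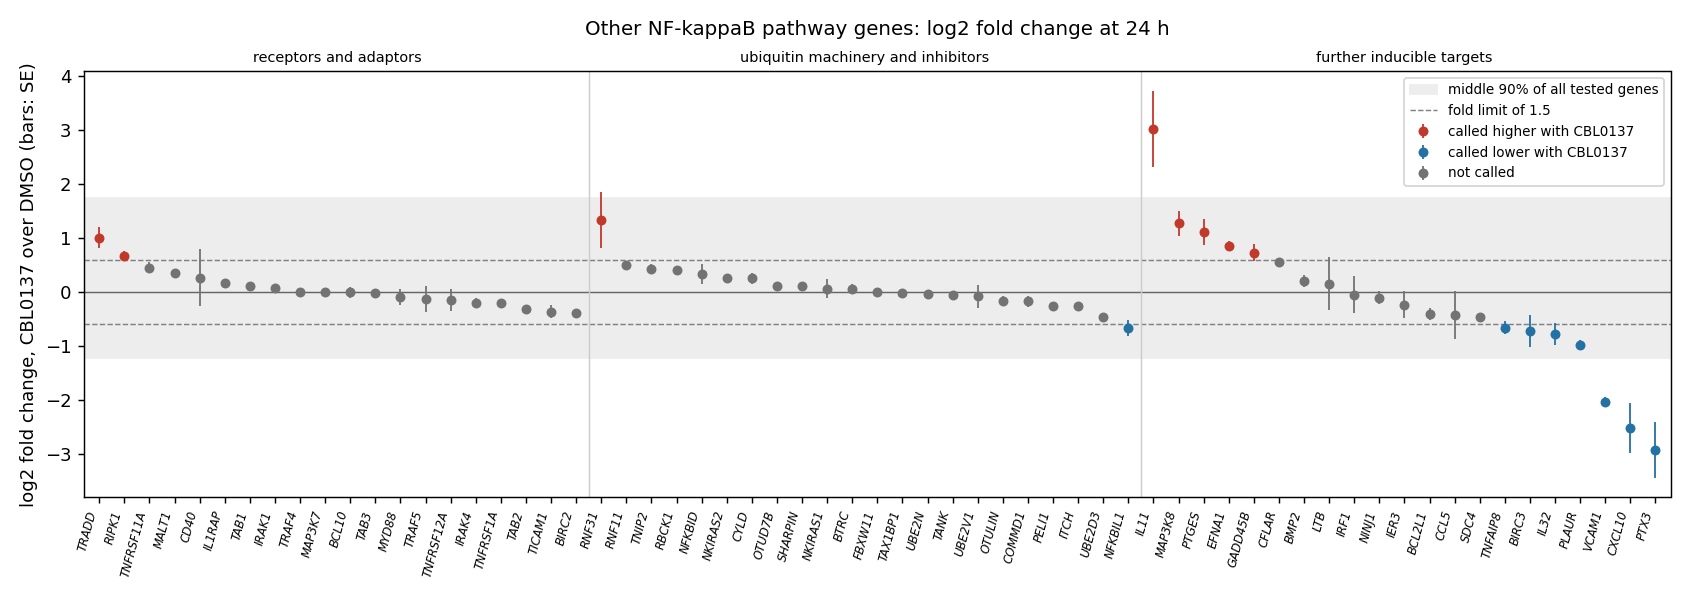
Log2 fold change of CBL0137 over DMSO with its SE for the 63 other pathway genes that were tested, sorted within 3 groups. The grey band holds the middle 90% of all tested genes and dashed lines mark the fold limit of 1.5. Most receptors, adaptors and ubiquitin genes lie within the fold limit, with TRADD (1.01), RIPK1 (0.66), RNF31 (1.34) and NFKBIL1 (-0.66) outside it, while the further targets spread from -2.92 for PTX3 to 3.02 for IL11.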

How the data were processed

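The authors' deposited raw counts per gene came from HTSeq 0.11.1, after HISAT2 alignment to hg19 of reads trimmed by Trim Galore, per the series' design text. The submitters' processing notes also name mm10, with no role given. The authors computed the deposited FPKM values from reads, gene length and depth. These are not a rescaling of the counts, since 5103 genes without a read have an FPKM above 0, so counts were tested and FPKM served for levels between genes and as an alternative. The sources used here give neither annotation release nor strand setting. The table has 6 entries that name no gene, left out of library sizes and tests. The reads of those in no annotated gene were 10.3% and 10.2% of all counted reads in the CBL0137 libraries and 8.53% and 8.82% in the DMSO libraries.

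The test of counts was edgeR 4.0.16's quasi-likelihood F test (R 4.3.3, TMM factors, filterByExpr), and p-values were adjusted over all 17374 tested genes. Calls need an adjusted p under 0.05 and a fold above 1.5, the limits in the design text. SE is the absolute log2 fold change over the square root of F. The 95% intervals use the fit's total degrees of freedom, the residual ones plus those borrowed across genes. CPM values use effective library sizes and are shares of the sequenced RNA. Ratios of pooled reads carry exact binomial intervals for counting error only. Alternatives used other factors, other filters, DESeq2 1.42.0, limma 3.58.1 on log2(FPKM + 1) or log2(FPKM + 0.1) for genes with a mean FPKM above 0.1, a replicate block and each library left out. The scripts were tested on simulated data. Replicates differed by more than sampling noise (chi-square per degree of freedom 2.68 for CBL0137 and 2.95 for DMSO). With 2 libraries against 2, no test of a single value outside the model was made.

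The genes and lists were chosen with earlier results of these data known. All 35 genes are accounted for: called ones with each library's value, tested ones with their fold change, untested ones with reads. Of the other pathway genes, the 2 called genes with the smallest p in each direction of each list are named, and others were named after their values were seen. The kappaB consensus is 10 bases long, and the search covered the 250 bases before the start, leaving out the 50 bases after it. SOD2 matched no identifier and was not analysed here. Gene positions are from GENCODE release 44 on GRCh37, the same build as hg19.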

Additional observations from a re-analysis of the deposited data

How the results depend on the processing

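The 5 higher and 4 lower calls among the NF-kappaB genes kept these numbers without each library in turn, and the replicate block changed no call among them (5 and 4; 3129 higher and 2612 lower over all genes). The deviations of same-numbered libraries from their group means had a correlation of 0.01 over genes, and whether the replicate numbers mark pairs was not tested. With log2(FPKM + 1) 2 were higher and 2 lower (all genes 2093 and 1535), as the added 1 flattens low values, and CSF1 was not tested there. Without a fold limit 7 were lower (all genes 5347 higher and 5375 lower), and with a fold above 2, 3 were higher (all genes 1988 and 1218). Over all genes, library size alone gave 4138 higher and 1877 lower. The all-gene lower calls were 1535 with log2(FPKM + 1) and 1913 with log2(FPKM + 0.1), against 2632 in the main fit. The other pathway genes had 17 higher and 18 lower without a fold limit and 5 and 3 above 2-fold. They had 12 higher and 5 lower with library size alone and 5 lower with either FPKM scale. Their numbers ran from 6 to 7 higher and from 6 to 8 lower without a library. The median of the tested genes was 0.0094 with upper-quartile factors, 0.10 with library size alone, -0.12 with no filter, -0.11 with DESeq2, 0.0023 with log2(FPKM + 1) and 0.0036 with log2(FPKM + 0.1), and ran from -0.08 to -0.03 without a library.

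Of 336 single values under an alternative, 302 kept their direction and were called or not called as before, 5 lost a call and 29 turned sign, all of the last in genes not called. With log2(FPKM + 1) and log2(FPKM + 0.1) these were NFKB1 (0.0188 and 0.0214), NFKBIZ (0.027 and 0.10), BCL3 (0.0165 and 0.0249), IKBKB (-0.54 and -0.57), IKBKG (-0.0119 and -0.0142) and TNIP1 (0.0442 and 0.0473). With library size alone they were NFKB1 (0.13), NFKBIZ (0.0428), CHUK (0.0745), TRAF2 (0.14) and TNIP1 (0.0426), with upper-quartile factors NFKB1 (0.0349) and TRAF2 (0.0511), and with no filter RELA (-0.0016) and IKBKB (-2e-04). Without a library RELA ran from -0.0248 to 0.0564, NFKB1 from -0.11 to 0.0279, NFKBIE from -0.0135 to 0.16, NFKBIZ from -0.47 to 0.32, IKBKB from -0.0139 to 0.0486 and TRAF2 from -0.0895 to 0.0445. Among genes past the adjusted p but not the fold limit, the adjusted p reached 0.26 for REL (DESeq2), 0.36 for TRAF3 (FPKM) and 0.40 for CD83 (library size alone). The cause was not tested.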

Other observations

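Proteins that work with TBK1 and IKBKE were looked at after the values of these kinases were seen, as 12 genes, all of which were tested. With CBL0137 4 rose, 3 fell and 5 were not called (edgeR), beside 18.2% higher and 15.1% lower over all genes tested. As the list was picked with its values known, the count is a description only. Among the adaptors that hold TBK1, AZI2 fell to 5.51 and 4.38 CPM with CBL0137, against 14.5 and 13.6 CPM with DMSO (log2 fold change -1.51, SE 0.15). TBKBP1, another adaptor, rose to 101.6 and 102.2 CPM, against 68.4 and 67.05 CPM with DMSO (0.59, SE 0.06), just past the fold limit. The autophagy receptor gene SQSTM1 rose to 75.7 and 66.6 CPM, against 39.5 and 43.2 CPM (0.78, SE 0.07), while OPTN was at 17.5 and 16.1 CPM against 18.1 and 19.9 CPM.

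Of the sensors and relays upstream of these kinases, MAVS rose to 252 and 240.6 CPM with CBL0137, against 165.8 and 154.4 CPM with DMSO (log2 fold change 0.62, SE 0.05). The RNA sensor genes RIGI (-0.69, SE 0.12) and IFIH1 (-0.95, SE 0.14) fell. The DNA sensor gene CGAS had 15 and 11 reads with CBL0137 and 0 and 4 with DMSO, and was called higher on these few reads (2.40, SE 0.79). By these reads CGAS could enter the test only through its CBL0137 libraries, the group where it was high. Its partner STING1 was at 25.6 and 23.9 CPM against 23.4 and 23.4 CPM. Of the transcription factors that the kinases activate, IRF3 (0.44, SE 0.07) and IRF7 (0.26, SE 0.24) were not called. IRF3 passed the adjusted p limit but not the fold limit (edgeR adjusted p = 2.5e-06), while IRF7 passed neither (edgeR adjusted p = 0.35).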
